A study of Oreochromis niloticus with 9 samples.

Results

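Oxidative phosphorylation subunits were followed in the liver of GIFT, a strain of Nile tilapia (Oreochromis niloticus) improved by selective breeding for farming. Members were chosen by gene symbol alone: every locus of the deposited expression table whose symbol begins with nduf, sdha, sdhb, sdhc, sdhd, uqcr, cyc1 or atp5, or with cox and a digit from 4 to 8, was kept. This gave 89 of the 37283 loci. The symbol rule used no measured value, but it was written with earlier results of these data known. By symbol, 35 loci belong to complex I, 3 to complex II, 8 to complex III, 16 to complex IV and 17 to complex V, and 10 are assembly or regulatory factors that carry the same prefixes. The 79 subunit loci are described complex by complex, and the 10 factors separately.

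Juvenile fish had been fed for 8 weeks on a basal diet with 0% (C), 0.2% (APP_A) or 0.8% (APP_H) apple peel powder by weight, and the added powder replaced cellulose in the feed. Each of the 9 poly(A) RNA libraries came from a pool of liver RNA of several fish of 1 tank, with 3 tanks per diet, so that the spread between libraries is a spread between tank pools. Libraries are named by diet and tank (C1 to C3, APP_A1 to APP_A3, APP_H1 to APP_H3). Levels are FPKM, read fragments scaled by transcript length and by the mapped reads of the library, which allow genes to be set side by side per length.

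Oxidative phosphorylation is the last stage of aerobic energy supply. Complexes I and II pass electrons from NADH and succinate to ubiquinone, complex III passes them on to cytochrome c, complex IV hands them to oxygen, and complex V, the ATP synthase, uses the proton gradient so built to make ATP. Most subunits are encoded in the nucleus, and those are the loci measured here. In liver, a mitochondria-rich organ, the system also oxidises the products of fatty acid and amino acid breakdown.

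The libraries differed as a set. The summed FPKM was between 2123520 and 2631532 in the C libraries and between 2145861 and 2330821 in the APP_A libraries, but 2532967, 1941494 and 1226503 in APP_H1, APP_H2 and APP_H3. Correlations of log2(FPKM + 1) across genes were 0.624 to 0.756 among the other 8 libraries and 0.410 to 0.557 for pairs with APP_H3. In the deposited values, 1411 loci were listed at 0 in a library while the median of the other 8 was at least 10 FPKM. These zeros enter the correlations, and 0 members were among those loci. Liver identity was checked with hepatocyte markers, of which 32 of 33 loci passed the filter on low values. Among them apoa1a was listed at 0 in C, APP_A2, APP_H1 and APP_H2, and was at 30624, 43942 and 1895 FPKM in APP_A1, APP_A3 and APP_H3. The median difference of log2(FPKM + 1) from the C median over the 32 loci was -0.34, -0.07 and 0.13 in APP_A1, APP_A2 and APP_A3. With apoa1a included, the hepatocyte markers summed to 88640 to 141009 FPKM in C, 124265 to 206104 in APP_A, and 183772, 85040 and 7166 in APP_H1, APP_H2 and APP_H3. The erythroid list ran the other way, at 202 to 551 in C, 98.3 to 376 in APP_A and 221, 440 and 2847 in APP_H. Exocrine pancreas markers summed to 17308 to 37291, 3877 to 47102, and 35020, 23778 and 905. Lymphoid markers were at 62.2, 175 and 186 in the APP_H libraries against 59.8 to 77.8 in C, and myeloid markers at 7824, 3160 and 313 against 3219 to 6145. Much of the lymphoid sum came from ptprc, at 24.5, 110 and 76.7 FPKM in APP_H against 27.7 to 34.95 in C. Of the 9 tested lymphoid loci, 8 were on the higher side in APP_H vs C, and cd8a was on the lower side. In C1 most of the myeloid sum came from the LYZ loci, at 4328 and 1705 FPKM, and these were at 112 and 40.2 in APP_H3. Of the 12 tested myeloid loci, 8 were on the higher side in APP_H vs C. Over all 12, the median difference of log2(FPKM + 1) from the C median was 0.18, 0.57 and 0.72 in APP_H1, APP_H2 and APP_H3. Cardiac markers summed to at most 1.22, with nppb, RYR2, ryr2b and 1 of 3 ACTC1 loci at 0 in every library, and skeletal muscle markers to at most 27.4, with mylpfa, myl1 and 1 of 2 pvalb1 loci at 0. In whole liver RNA, fewer cells of a type and less RNA per cell cannot be told apart, and the part of these marker differences in the results was not tested.

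The subunits spanned a wide range of levels. Of the 79 subunit loci, 75 reached 1 FPKM or more in 3 or more libraries and were tested, together with all 10 factors. A mean over the 9 libraries of at least 100 FPKM was reached by 24 subunits, and 10 of the tested subunits were under 10 FPKM. The median of the means was 29.2 FPKM in complex I, 14.0 in complex II, 28.3 in complex III, 142 in complex IV and 113 in complex V. The 4 loci below the filter were ndufv1 copy 2 and ndufb4 copy 2 of complex I and cox7a3 and ndufa4l2 of complex IV. Of these, ndufb4 copy 2 and ndufa4l2 are listed at 0 in all 9 libraries, cox7a3 was at 0.90 FPKM in C3 and listed at 0 elsewhere, and ndufv1 copy 2 was listed at 0 in C and APP_A and was at 0.04, 2.33 and 0.09 FPKM in the APP_H libraries. Where a symbol stands at more than 1 locus, the loci are called copy 1 and copy 2 by their mean level, and reads from near-identical copies may have been divided between them by the authors' counting.

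No member was called in any comparison, but the 3 APP_H libraries lay far apart from each other, and in a direction that most subunits shared. APP_H1 alone held the highest level of the 9 libraries for 55 of 75 subunits, where the same was true of 13.7% of all tested genes. APP_H3 alone held the lowest level for 39 of 75, beside 25.7% of all tested genes, and APP_H2 for 12 of 75, beside 5.57%. Against the range of the 3 C libraries, APP_H1 was above it for 60 of 75 subunits (27.6% of all tested genes), APP_H2 was below it for 48 of 75 (28.0%) and APP_H3 below it for 51 of 75 (35.9%). The full pattern, APP_H1 above and both other APP_H libraries below all C libraries, was met by 34 of 75 subunits and by 5.78% of all tested genes. Summed over all members, the share of the library's FPKM was 0.355, 0.427 and 0.346% in C, 0.389, 0.454 and 0.363% in APP_A and 0.522, 0.346 and 0.331% in APP_H. Without APP_H3, in ranks chosen after seeing the data, APP_H2 alone was the lowest of the remaining 8 libraries for 38 of 75 subunits (15.5% of all tested genes) and 13 of the 17 loci of complex V, and APP_H1 alone was the highest for 56 of 75 (16.1%). Without APP_H1, APP_H3 alone was the lowest of the remaining 8 for 39 of 75 (26.9%). The hepatocyte marker sums given above followed the same order within APP_H, and their part in this order was not tested.

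**Figure D1:**
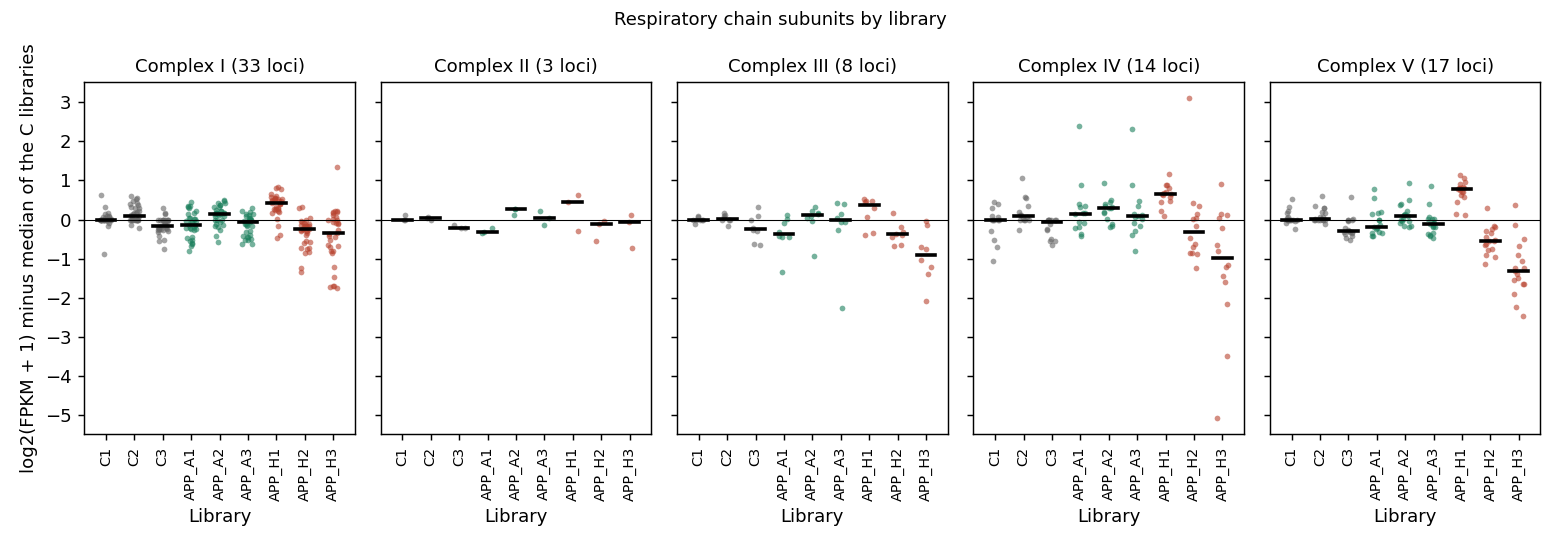
Level of each tested subunit in each of the 9 libraries, as log2(FPKM + 1) minus the median of the 3 C libraries, with 1 panel per complex. Points are loci and black bars are medians over loci, and in complex V all 17 loci are highest in APP_H1 while 13 of 17 are lowest in APP_H3.

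Complex I takes electrons from NADH by a flavin and a chain of iron-sulphur clusters. Of its 33 tested loci, 9 encode core subunits, most of which bind these cofactors or the quinone, and 24 encode accessory subunits. The highest mean level belonged to ndufa12, an accessory subunit that sits near the NADH-oxidising arm, at 591, 328 and 382 FPKM in C, 276, 363 and 266 in APP_A and 471, 232 and 138 in APP_H. The 2 lowest values of ndufa12 were APP_H2 and APP_H3, while APP_H1 lay inside the C range. The lowest tested level was that of ndufs1 copy 2, at 2.79, 2.02 and 2.35 FPKM in C, 1.19, 2.79 and 2.57 in APP_A and 3.72, 2.05 and 1.44 in APP_H.

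Among the core subunits, the flavin-binding ndufv1 copy 1 was at 18.2, 21.3 and 14.9 FPKM in C, 21.1, 19.8 and 21.2 in APP_A and 27.2, 16.2 and 19.2 in APP_H. The larger iron-sulphur subunit, ndufs1 copy 1, was at 30.2, 28.5 and 25.1 FPKM in C, 29.3, 34.1 and 28.3 in APP_A and 39.7, 25.5 and 26.8 in APP_H. For both, APP_H1 was the highest library and the remaining 8 overlapped freely.

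At the quinone-binding end, ndufs7 was at 28.5, 39.6 and 28.3 FPKM in C, 24.3, 31.8 and 27.6 in APP_A and 39.8, 25.3 and 17.7 in APP_H. The iron-sulphur subunit ndufs8a was at 54.1, 43.3 and 36.8 FPKM in C, 37.0, 46.3 and 30.3 in APP_A and 58.5, 25.2 and 26.2 in APP_H. In both genes APP_H1 was above every C library and APP_H2 and APP_H3 were below every C library. That pattern was met by 5 of the 9 core loci and by 6 of the 24 accessory loci of complex I.

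The iron-sulphur subunit ndufv2 stood apart in APP_H3. Its copy 1, which the table merges with the neighbouring ankrd12, was at 11.7, 11.8 and 13.2 FPKM in C, 10.5, 16.0 and 12.0 in APP_A and 18.5, 7.63 and 6.02 in APP_H. Its copy 2 was at 1.1, 2.87 and 3.71 FPKM in C, 1.85, 2.55 and 2.80 in APP_A and 3.70, 2.68 and 8.78 in APP_H. Copy 1 therefore exceeded copy 2 by 2.85 to 10.6 times in 8 libraries, and the ratio was 0.686 in APP_H3. The table gives both loci the same position, as it does for the copies of ndufa3, so that how reads were divided between them is uncertain.

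In APP_H3 complex I was less low than complexes III, IV and V. Over its 33 loci the median ratio to the C median in APP_H1, APP_H2 and APP_H3 was 1.35, 0.83 and 0.78. Individual subunits ranged in APP_H3 from 0.294 of the C median for ndufa5, an accessory subunit, to 3.06 times for ndufv2 copy 2. Levels of ndufb9 in APP_H3 (76.1 FPKM), ndufa1 (49.5) and ndufs6 (71.6) were close to the C levels of 59.6 to 83.1, 36.4 to 62.7 and 75.1 to 78.0 FPKM, although ndufs6 was below all 3. In contrast ndufab1a, the mitochondrial acyl carrier protein that also serves as a complex I subunit, was at 12.9 FPKM in APP_H3 against 37.9 to 48.3 in C.

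Complex II, succinate dehydrogenase, links the chain to the citric acid cycle and is read here from 3 loci. Its flavoprotein sdha was at 13.6, 14.0 and 11.5 FPKM in C, 10.4, 16.6 and 16.1 in APP_A and 10.8, 8.92 and 14.8 in APP_H. Unlike the other loci of complex II, sdha was not high in APP_H1. The iron-sulphur subunit sdhb was at 14.3, 15.1 and 12.8 FPKM in C, 11.2, 15.7 and 14.8 in APP_A and 19.7, 13.9 and 8.16 in APP_H. The membrane anchor sdhda was at 26.6, 24.3 and 20.6 FPKM in C, 21.0, 29.3 and 22.0 in APP_A and 38.1, 22.6 and 23.3 in APP_H. No complex II locus had APP_H1 above and APP_H2 and APP_H3 both below the C range, and the median fold over the C median in APP_H1, APP_H2 and APP_H3 was 1.38, 0.93 and 0.96.

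Complex III moves electrons from ubiquinol to cytochrome c through cytochrome b, cytochrome c1 and the Rieske iron-sulphur protein. The Rieske gene uqcrfs1 copy 1 was at 32.1, 30.9 and 26.5 FPKM in C, 33.3, 38.6 and 41.7 in APP_A and 43.5, 24.3 and 17.7 in APP_H. Its APP_A values all lay above its C values. Its copy 2 was low throughout, at 1.67, 1.37 and 1.84 FPKM in C, 1.52, 2.13 and 1.73 in APP_A and 1.11, 1.32 and 1.42 in APP_H, and was the lowest tested locus of the complex. Cytochrome c1, cyc1, was at 10.7, 10.0 and 7.92 FPKM in C, 10.1, 10.8 and 13.6 in APP_A and 14.8, 7.38 and 4.41 in APP_H. For cyc1, APP_H3 was the lowest and APP_H1 the highest of the 9 libraries.

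The core proteins of complex III hold the structure together on the matrix side. Core protein 1, uqcrc1, was at 32.6, 35.0 and 20.9 FPKM in C, 23.7, 33.6 and 35.9 in APP_A and 46.0, 20.2 and 13.6 in APP_H. The core protein 2 gene uqcrc2a was at 21.8, 22.5 and 18.0 FPKM in C, 17.3, 24.3 and 20.7 in APP_A and 30.2, 13.3 and 13.0 in APP_H. Its counterpart uqcrc2b was at 28.4, 30.8 and 28.5 FPKM in C, 20.9, 32.1 and 27.3 in APP_A and 29.9, 22.0 and 27.9 in APP_H. The ratio of uqcrc2b to uqcrc2a was 2.15 in APP_H3 and 0.991 to 1.66 in the other 8 libraries. The highest level of the complex was that of uqcrb, an accessory subunit, at 158, 176 and 101 FPKM in C, 116, 153 and 131 in APP_A and 193, 115 and 59.0 in APP_H. Over the 8 loci the median fold over the C median was 1.3, 0.75 and 0.51 in APP_H1, APP_H2 and APP_H3.

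Complex III also held the member with the lowest p in APP_A vs C. It was uqcrhl, named for its likeness to the hinge protein that helps cytochrome c1 meet cytochrome c, at 112, 121 and 151 FPKM in C, 47.1, 62.3 and 24.2 in APP_A and 91.4, 136 and 27.7 in APP_H. Every APP_A library was below every C library, while APP_H2 lay within the C range, APP_H3 within the APP_A range and APP_H1 between them. The log2 fold change of APP_A vs C was -1.59 with an SE of 0.65, at a limma unadjusted p of 0.0421 and an adjusted p of 1.0 over all genes tested.

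Complex IV, cytochrome c oxidase, surrounds its mitochondrially encoded core with small nuclear subunits, several of which exist as tissue isoforms. The most abundant was cox6a2, known in mammals as the heart and muscle isoform of subunit 6a, at 901, 869 and 736 FPKM in C, 974, 1057 and 927 in APP_A and 1597, 368 and 24.9 in APP_H. All APP_A libraries were above all C libraries, and the APP_H libraries held both the highest and the lowest values. In APP_H3, cox6a2 was at 0.0286 of its C median, the lowest such fold of any tested subunit. Its partner cox6a1, the widely expressed isoform in mammals, was at 72.9, 222 and 106 FPKM in C, 196, 93.8 and 195 in APP_A and 240.0, 134 and 199.6 in APP_H. The ratio of cox6a1 to cox6a2 was therefore 8.02 in APP_H3 and between 0.0809 and 0.364 in the other 8 libraries.

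Subunit 4, through which ATP is known to restrain the enzyme, showed the same library apart. The common isoform cox4i1 was at 196, 200 and 124 FPKM in C, 146, 173 and 161 in APP_A and 275, 175 and 87.9 in APP_H. The second isoform cox4i2, known in mammals for expression in lung and under low oxygen, was at 157, 128 and 105 FPKM in C, 143, 144 and 119 in APP_A and 205, 78.4 and 10.4 in APP_H. Their ratio was 1.02 to 2.23 in 8 libraries and 8.48 in APP_H3. Both pairs lie on different scaffolds of the assembly and were not merged with a neighbour. In APP_H3 the hepatocyte markers were also at their lowest sum (7166 FPKM) and the erythroid markers at their highest (2847 FPKM), and their part in these ratios was not tested.

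**Figure D2:**
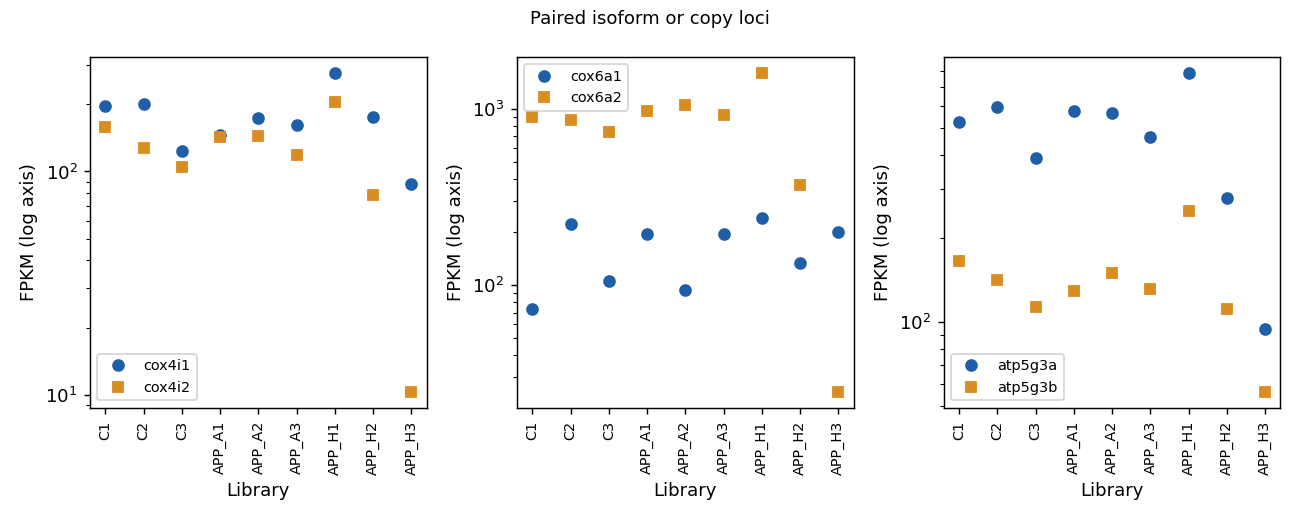
FPKM on a log axis by library for cox4i1 and cox4i2, for cox6a1 and cox6a2, and for atp5g3a and atp5g3b. In APP_H3 cox4i2 (10.4 FPKM) and cox6a2 (24.9 FPKM) fall away from their partners, and cox6a1 exceeds cox6a2 in that library alone.

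The tested subunit of complex IV with the largest CV over the 9 libraries (98.6%) was cox6b1, although its highest level was 14.1 times its lowest against 64.2 times for cox6a2. It lies on the outer face of the enzyme close to where cytochrome c docks, and was at 77.9, 162 and 127 FPKM in C, 673, 173 and 640 in APP_A and 173, 1098 and 129 in APP_H. All APP_A libraries were above all C libraries, but APP_A2 only by a small step, and in APP_H the high value was that of APP_H2. The log2 fold change was 1.84 with an SE of 0.93 in APP_A vs C (limma unadjusted p = 0.0843, adjusted p = 1.0), and 1.31 with an SE of 0.93 in APP_H vs C (limma adjusted p = 0.709). Without APP_H2 the latter was 0.35. Unlike cox6b1, the related cox6b2 copy 1 stayed between 14.0 and 40.9 FPKM, and cox6b2 copy 2, the lowest tested locus of the complex, was between 0.17 and 3.44 FPKM.

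Subunit 7a held the 1 subunit locus at which APP_H overlapped with neither other diet, and the factor sdhaf4 was the 1 other such member. The share of all tested genes with 1 diet apart from both others was not counted. By pairs, APP_H was apart from C for 5.91% of all tested genes on the higher and 7.02% on the lower side. It was apart from APP_A for 7.45% and 7.06%. The gene cox7a2a, whose mammalian counterpart is the isoform of liver and most other tissues, was at 43.6, 56.5 and 54.2 FPKM in C, 46.9, 49.9 and 40.7 in APP_A and 85.5, 72.7 and 60.3 in APP_H. All APP_H libraries were above all C and all APP_A libraries. The log2 fold change was 0.49 with an SE of 0.34 in APP_H vs C (limma adjusted p = 0.706), and in APP_H vs APP_A 0.65 with an SE of 0.34 (limma adjusted p = 0.495), and neither passed the test. Subunit 5a was read from a pair of loci. Of these, cox5aa was at 44.4, 47.7 and 41.0 FPKM in C, 58.7, 85.5 and 56.2 in APP_A and 47.0, 45.7 and 18.6 in APP_H, so that all APP_A libraries were above both other diets. The other, cox5a, was at 216, 234 and 146 FPKM in C, 205, 270 and 191 in APP_A and 333, 156 and 47.8 in APP_H. Over the 14 loci of complex IV the median fold over the C median was 1.58, 0.81 and 0.50 in APP_H1, APP_H2 and APP_H3.

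Complex V showed the divergence of the APP_H libraries most evenly. All of its 17 loci were highest in APP_H1, 13 of 17 were lowest in APP_H3, and 14 of 17 met the full pattern of APP_H1 above and APP_H2 and APP_H3 below the C range. Their median ratio to the C median in APP_H1, APP_H2 and APP_H3 was 1.73, 0.68 and 0.40. As a share of the library's summed FPKM, complex V was at 0.153, 0.188 and 0.151% in C and 0.236, 0.122 and 0.145% in APP_H. By this share APP_H2 was the lowest library. By the same measure APP_H3 was below the C range in complexes III, IV and V, but not in complexes I and II. The median SD of log2(FPKM + 1) within a diet was 0.27 in C, 0.18 in APP_A and 1.08 in APP_H for these loci. Over all 20575 tested genes it was 0.38, 0.40 and 0.75, so that complex V lay below the general level in C and APP_A and above it in APP_H. Taking all 75 subunits together, the medians were 0.24, 0.22 and 0.67, and the SD was largest in APP_H for 66 of 75 (88.0%) against 61.4% of all tested genes. The tested genes as a set had median levels of 3.51 to 4.35 FPKM per library. Genes at the level of the subunits were not compared separately.

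The catalytic head of complex V is made of alpha and beta subunits around the gamma shaft. The alpha gene atp5a1 copy 1 was at 131, 118 and 81.0 FPKM in C, 94.6, 117 and 118 in APP_A and 191, 74.7 and 37.0 in APP_H. Its copy 2 was steadier, at 31.7, 33.5 and 34.1 FPKM in C, 26.3, 29.2 and 31.3 in APP_A and 36.1, 29.5 and 20.7 in APP_H, with all APP_A libraries below all C libraries. For both copies the order APP_H1, APP_H2, APP_H3 ran downward, but over a narrower range in copy 2.

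The beta gene atp5b copy 1 was at 64.8, 68.2 and 51.6 FPKM in C, 56.5, 71.7 and 68.0 in APP_A and 112, 47.2 and 30.8 in APP_H. Its copy 2 was at 6.56, 10.7 and 6.72 FPKM in C, 12.2, 10.0 and 13.1 in APP_A and 15.1, 5.81 and 1.44 in APP_H. Copy 1 exceeded copy 2 by 4.62 to 9.87 times in 8 libraries and 21.4 times in APP_H3. The gamma gene atp5c1 was at 80.9, 78.8 and 63.1 FPKM in C, 69.4, 77.2 and 79.4 in APP_A and 137, 50.2 and 27.1 in APP_H, and the delta gene atp5d at 98.6, 93.7 and 80.6, at 92.7, 110 and 82.6, and at 129, 54.4 and 39.0 FPKM. All 7 loci of the catalytic head met the full pattern, as did 7 of the 10 loci of the membrane rotor and stalks.

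In the membrane, the ring that turns as protons pass is built from copies of subunit c, encoded by the atp5g genes. The most abundant of these, atp5g3a, was at 524, 593 and 390 FPKM in C, 575, 564 and 462 in APP_A and 784, 279 and 94.6 in APP_H. The gene atp5g3b was at 166, 142 and 113 FPKM in C, 129, 151 and 131 in APP_A and 250.4, 112 and 56.3 in APP_H. The remaining ring gene, atp5g1, was at 128, 130 and 125 FPKM in C, 100.3, 126 and 96.2 in APP_A and 209.6, 75.9 and 26.4 in APP_H. All 3 ring genes were highest in APP_H1 and lowest in APP_H3, and the ratio of atp5g3a to atp5g3b was 1.68 in APP_H3 against 2.49 to 4.46 in the other 8 libraries.

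The stalk that holds the head still includes atp5o, the oligomycin sensitivity protein, at 354, 282 and 229 FPKM in C, 239, 264 and 245 in APP_A and 496, 192 and 95.3 in APP_H. The highest level of any subunit was that of atp5ia, a small membrane subunit known for its part in ATP synthase dimers, at 1139, 1457 and 1128 FPKM in C, 1286, 1507 and 1140 in APP_A and 1775, 789 and 810 in APP_H. At the other end atp5j2, subunit f, was the lowest of the complex at 0.92, 0.77 and 1.87 FPKM in C, 1.80, 2.64 and 1.51 in APP_A and 3.20, 1.34 and 1.5 in APP_H. The loci of complex V outside the full pattern were atp5l, atp5f1 and atp5j2. In the deposited values, atp5f1 is merged with the neighbouring eps8l3b. For atp5j2 APP_H1 was the highest library, and its APP_H2 and APP_H3 values lay inside the C range.

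**Figure D3:**
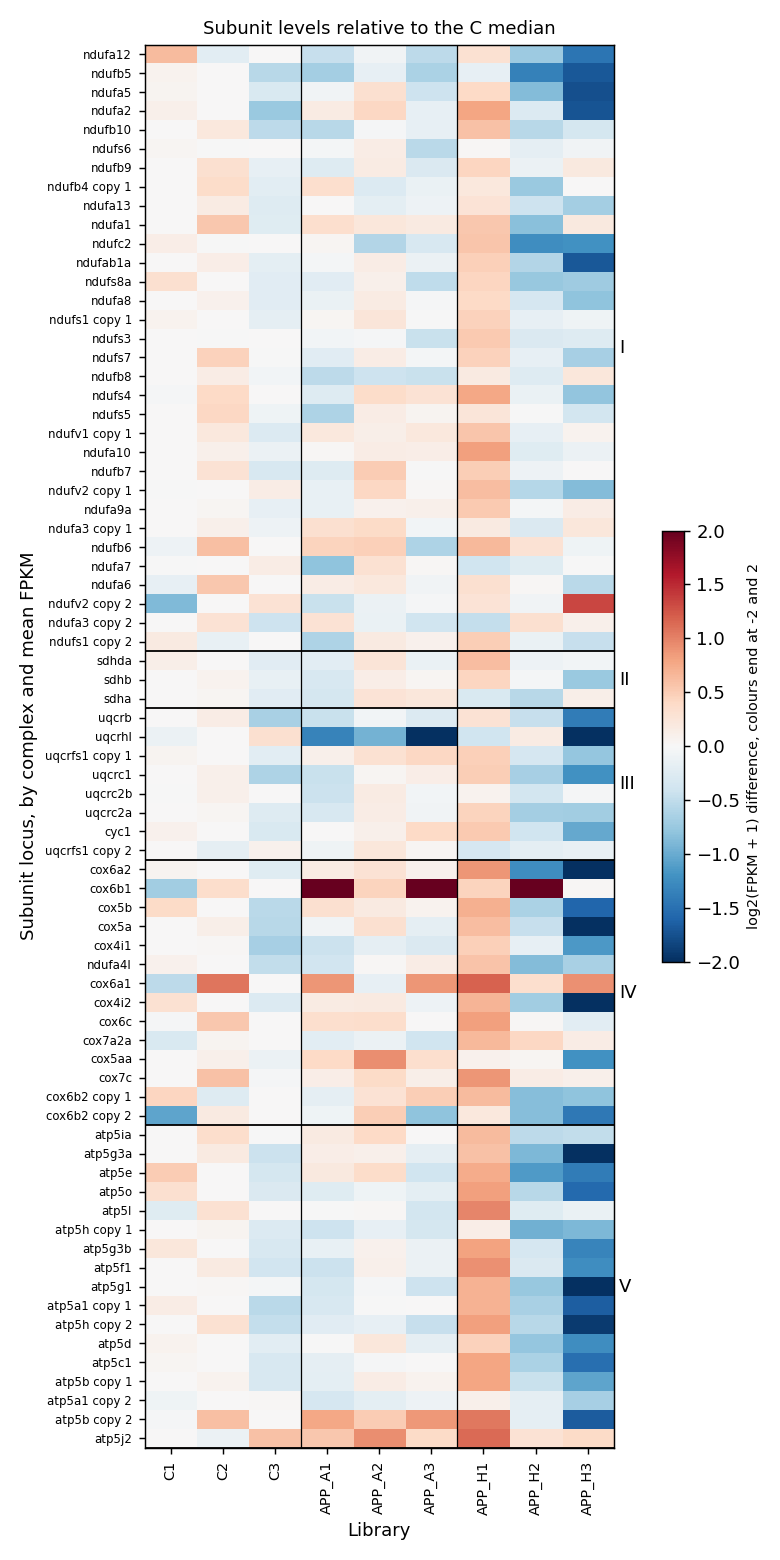
Difference of log2(FPKM + 1) from the median of the C libraries for 74 of the 75 tested subunits (rows, ordered by complex and mean FPKM) in the 9 libraries (columns), with red for higher and blue for lower and colours ending at -2 and 2. The APP_H1 column is red for most rows and APP_H2 and APP_H3 are blue for most, most evenly in complex V, while uqcrhl and cox6b1 stand out in the APP_A columns.

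The first comparison the design implies, APP_A vs C, asks what the lower dose of the powder did. A call required an adjusted p under 0.05 and a log2 fold change of at least 1 in size, and 0.0972% of the 20575 tested genes were called. No member was called, and limma's unadjusted p was under 0.05 for 0 members in the higher direction (1.48% of all tested genes) and for 1 in the lower direction (1.92%), uqcrhl. These p-values rest on a spread pooled over all 3 diets, which includes the wide APP_H spread. In a limma fit of C and APP_A alone, unadjusted p was under 0.05 for 1 member in the higher direction (2.29% of all tested genes). It was under 0.05 for 2 in the lower direction (3.49%). The groups did not overlap for 5 members that were higher in APP_A (4.69% of all tested genes), namely uqcrfs1 copy 1, cox6a2, cox6b1, cox5aa and atp5s, and for 4 that were lower (6.34%), namely ndufs3, ndufb8, uqcrhl and atp5a1 copy 2. The counts are close to these background shares. Among these loci, ndufs3 is merged with the neighbouring ptpmt1 in the deposited values. Median log2 fold changes were -0.04 in complex I, 0.01 in complex II, 0.04 in complex III, 0.14 in complex IV and -0.01 in complex V, beside -0.05 over all tested genes, of which 44.9% were above 0. In complex IV 12 of 14 loci were on the higher side, 3 of them without overlap, but its median was -0.02 without C3 and 0.02 without APP_A2.

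Of the loci with the next lowest p in APP_A vs C, ndufb8, an accessory subunit of the membrane arm, was at 30.0, 33.5 and 28.8 FPKM in C, 20.6, 22.2 and 21.8 in APP_A and 34.0, 24.98 and 35.3 in APP_H. The 3 APP_A libraries were closely grouped below all others. The log2 fold change was -0.49 with an SE of 0.30 in APP_A vs C (limma adjusted p = 1.0) and 0.51 with an SE of 0.30 in APP_H vs APP_A (limma adjusted p = 0.521). The log2 fold change of atp5j2 in APP_A vs C was 0.46 with an SE of 0.32 (limma adjusted p = 1.0).

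The second comparison, APP_H vs C, uses the same C libraries as the first. Of all tested genes 0.122% were called, and again no member. Limma's unadjusted p was under 0.05 for 0 members in either direction, beside 3.18% of all tested genes in the higher and 4.4% in the lower direction. Without overlap, 1 member was higher (5.91% of all tested genes), cox7a2a, and 2 were lower (7.02%), the factors sdhaf4 and ndufaf2. On the fitted values, 65 of the 85 tested members were on the lower side and 20 on the higher side, while 48.3% of all tested genes were above 0. Medians were -0.14 in complex I, -0.09 in complex II, -0.23 in complex III, -0.27 in complex IV and -0.41 in complex V, beside -0.03 over all tested genes, but after quantile normalization complex I was at 0.07 and complex IV at -0.0017.

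These medians turned on single libraries. Without APP_H3 they were 0.00, 0.23, 0.02, 0.16 and 0.15 in complexes I to V, and 43 of 75 subunits were on the higher side. Without APP_H1 they were -0.31, -0.16, -0.63, -0.61 and -0.96, and 68 of 75 were on the lower side. Without APP_H1, 14 subunits had a limma unadjusted p under 0.05 in the lower direction, 6 of them in complex I, 2 in complex IV and 6 in complex V, but 10.4% of all tested genes had one too, and no adjusted p was below 0.201. No subunit had one in the higher direction (7.95% of all tested genes). The 6 of complex V were atp5g3a, atp5e, atp5h copy 1, atp5g1, atp5d and atp5c1. Without APP_H3, 0 subunits passed unadjusted in either direction (3.75% of all tested genes in the higher and 3.87% in the lower direction).

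**Figure D4:**
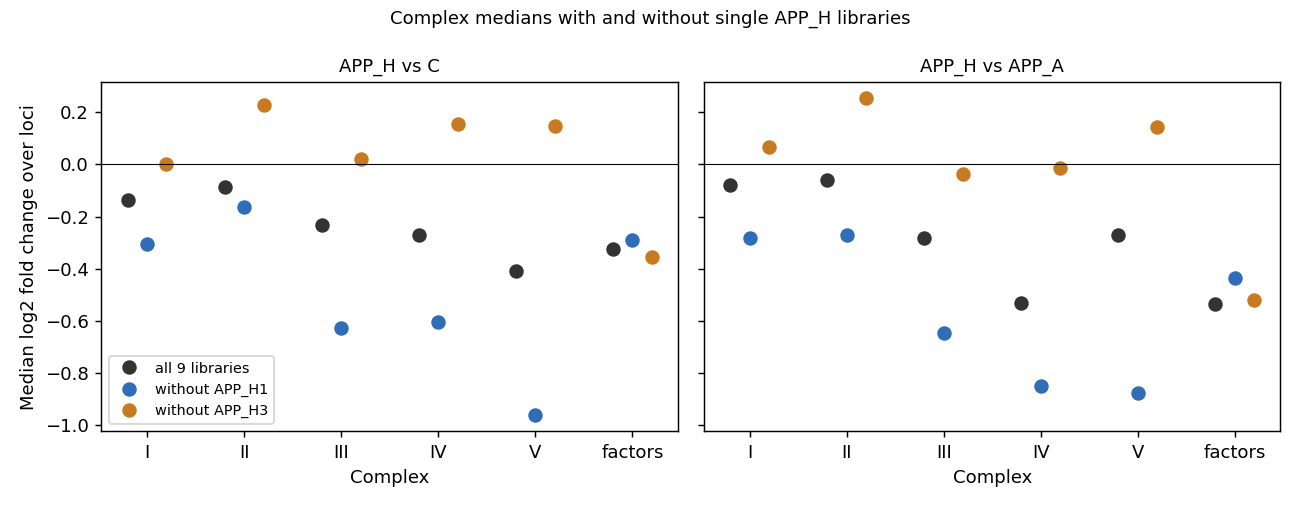
Median log2 fold change over the tested loci of each complex and of the 10 factors in APP_H vs C (left) and APP_H vs APP_A (right), with all 9 libraries, without APP_H1 and without APP_H3. In APP_H vs C complex V goes from -0.41 to -0.96 without APP_H1 and to 0.15 without APP_H3, whereas the factors stay between -0.35 and -0.29.

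Among the loci of lowest p in APP_H vs C were ndufv2 copy 2, with a log2 fold change of 0.71 and an SE of 0.44 (limma adjusted p = 0.692), and ndufb5. The latter, an accessory subunit of the membrane arm, was at 432, 412 and 279.9 FPKM in C, 258, 367 and 265 in APP_A and 367, 161 and 127 in APP_H. APP_H2 and APP_H3 were the lowest of the 9 libraries and APP_H1 lay inside the C range. The log2 fold change of ndufb5 was -0.91 with an SE of 0.52 (limma adjusted p = 0.676), and -0.60 without APP_H3. For ndufv2 copy 2 the value was 0.30 without APP_H3.

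The last comparison, APP_H vs APP_A, sets the higher against the lower dose. Here 0.136% of all tested genes were called, and no member. Limma's unadjusted p was under 0.05 for 0 members in the higher direction (5.71% of all tested genes) and for 2 in the lower direction (5.17%), both assembly factors. The groups did not overlap for 2 subunits that were higher in APP_H (7.45% of all tested genes), ndufb8 and cox7a2a, and for 6 members that were lower (7.06%): the subunits uqcrfs1 copy 2 and cox5aa and the factors sdhaf2, sdhaf4, ndufaf6 and ndufaf4. Medians were -0.08, -0.06, -0.28, -0.53 and -0.27 in complexes I to V, beside 0.02 over all tested genes. Without APP_H3 they were 0.07, 0.25, -0.04, -0.02 and 0.14, and without APP_H1 -0.28, -0.27, -0.65, -0.85 and -0.88. Limma's unadjusted p was under 0.05 for 18 subunits in the lower direction without APP_H1 (11.2% of all tested genes), and for 2 subunits in the higher direction without APP_H3 (5.53%), uqcrhl and cox7a2a. No subunit passed in the higher direction without APP_H1 (11.6%) or in the lower direction without APP_H3 (4.27%).

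The assembly and regulatory factors, which build or tune the complexes without staying in them, had means between 1.09 and 10.7 FPKM. Of the 10, 0 had APP_H1 above and APP_H2 and APP_H3 below the C range (5.78% of all tested genes) and 0 were highest in APP_H1 (13.7%), and the difference from the subunits was not tested. In APP_H vs APP_A all 10 were on the lower side, where 51.0% of all tested genes were above 0. Their median was -0.53, which was -0.52 without APP_H3 and -0.43 without APP_H1. In APP_H vs C 9 of 10 were on the lower side with a median of -0.32 (48.3% of all tested genes above 0). In APP_A vs C 8 of 10 were on the higher side (44.9%), with a median of 0.22, which was 0.0855 without APP_A2. Assembly factors beyond these 10 are described below and were not all lower in APP_H vs APP_A.

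The factor with the lowest p in APP_H vs APP_A was ndufaf4, which acts early in complex I assembly, at 1.27, 1.43 and 0.72 FPKM in C, 1.47, 1.58 and 1.36 in APP_A and 0.82, 0.34 and 0.78 in APP_H. All APP_H libraries were below all APP_A libraries, with a log2 fold change of -0.60 and an SE of 0.24 (limma unadjusted p = 0.0371, adjusted p = 0.432). Next came ndufaf6, also needed for complex I assembly in mammals, at 3.21, 1.60 and 1.78 FPKM in C, 2.2, 4.29 and 2.14 in APP_A and 1.89, 0.97 and 0.40 in APP_H. The groups again did not overlap, with a log2 fold change of -0.91 and an SE of 0.37 in APP_H vs APP_A (limma unadjusted p = 0.0382, adjusted p = 0.435), and in APP_H vs C it was -0.64 with an SE of 0.37 (limma adjusted p = 0.675). The latter was -0.39 without APP_H3, -0.43 without C1 and -1.10 with a pseudocount of 0.1.

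Factors of complex II were on the lower side in APP_H too, without passing the test. The gene sdhaf2, which attaches the flavin to sdha, was at 9.36, 12.0 and 8.98 FPKM in C, 11.8, 17.0 and 12.0 in APP_A and 11.0, 7.07 and 7.46 in APP_H, and the log2 fold change in APP_H vs APP_A was -0.63 with an SE of 0.30 (limma adjusted p = 0.475). Its APP_H and C values overlapped, and the log2 fold change in APP_H vs C was -0.24 with an SE of 0.30 (limma adjusted p = 0.792). The gene sdhaf4, which binds the flavin-loaded sdha, was at 3.68, 3.73 and 3.91 FPKM in C, 3.83, 3.45 and 3.88 in APP_A and 2.45, 2.64 and 3.10 in APP_H. All APP_H values of sdhaf4 lay below all others, with a log2 fold change of -0.36 (SE 0.19) in APP_H vs C (limma adjusted p = 0.668). Without APP_H3 sdhaf4 was the 1 member with an unadjusted limma p under 0.05 in APP_H vs C, with a log2 fold change of -0.43 (adjusted p = 0.628).

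Of the remaining factors, atp5s, a coupling factor of the ATP synthase, was at 4.09, 6.16 and 4.78 FPKM in C, 8.24, 6.29 and 18.5 in APP_A and 15.1, 4.82 and 3.71 in APP_H. The APP_A values lay above the C values, APP_A2 by a small step, with a log2 fold change of 0.88 and an SE of 0.55 (limma adjusted p = 1.0), which was 0.46 without APP_A3. The complex I factor ndufaf5 had a log2 fold change of -0.22 with an SE of 0.25 in APP_A vs C (limma adjusted p = 1.0), which was -0.36 without APP_A1 and -0.13 without APP_A3.

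**Figure D5:**
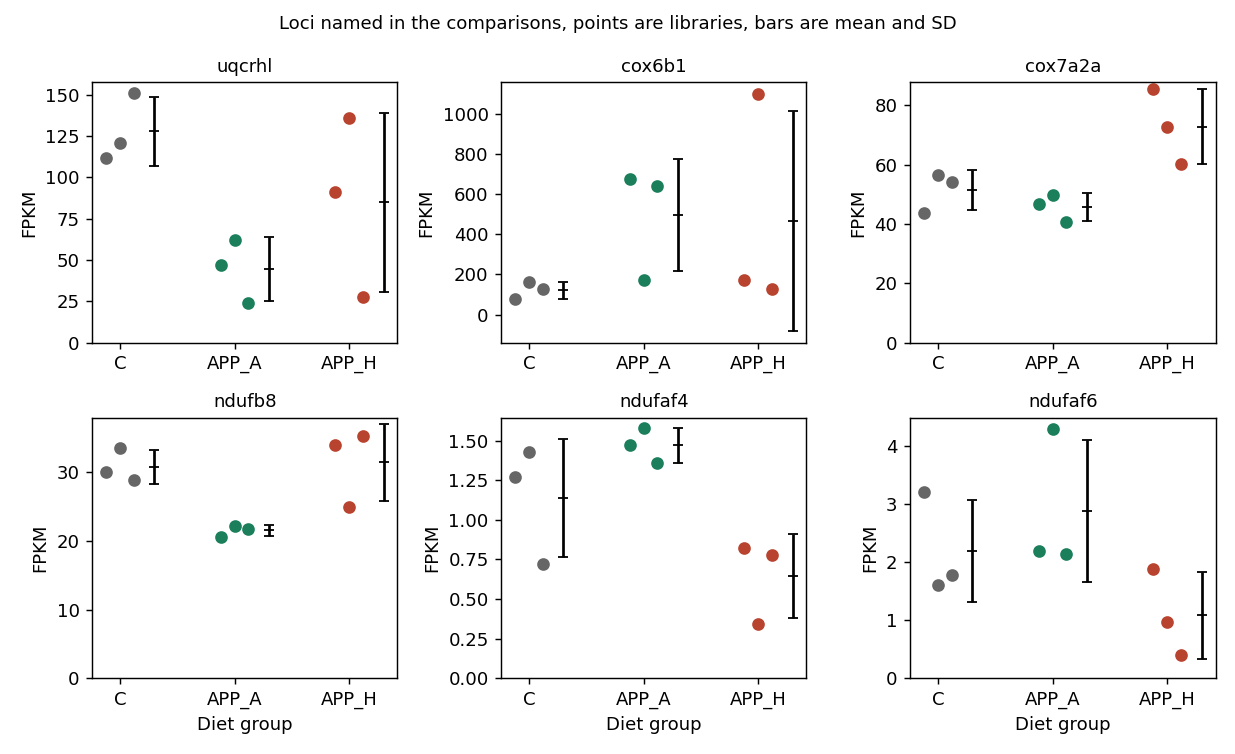
FPKM of 6 loci named in the comparisons by diet group, with points for the 3 libraries of each diet and bars for mean and SD (n = 3). The groups do not overlap for uqcrhl and cox6b1 in APP_A vs C, for cox7a2a and ndufb8 in APP_H vs APP_A, and for ndufaf4 and ndufaf6 in APP_H vs APP_A, but no adjusted p was below 0.432.

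Other genes of the same pathway were read from lists written from general knowledge. Of 38 loci of assembly factors, 9 of which are also members, 37 passed the filter and none was called in any comparison. Limma's unadjusted p was under 0.05 for 3 of them in the lower direction in APP_H vs APP_A (5.17% of all tested genes), ndufaf4, ndufaf6 and tmem126a. It was under 0.05 for 0 in every other case. Medians of the 37 were 0.04 for APP_A vs C and -0.24 for both comparisons with APP_H. In APP_H vs APP_A 13 of the 37 were on the higher side, and all of these lay outside the members. The copper chaperone of complex IV, cox17, was at 2.27, 4.19 and 10.5 FPKM in C, 5.93, 4.85 and 4.01 in APP_A and 7.51, 11.2 and 15.5 in APP_H, and its log2 fold change in APP_H vs C was 1.05 at a limma unadjusted p of 0.065. Its C and APP_H values overlapped.

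Cytochrome c itself, the mobile carrier between complexes III and IV, was read from 2 loci named cycsb. Their summed level was 34.1, 42.3 and 21.3 FPKM in C, 25.6, 44.3 and 38.1 in APP_A and 42.8, 44.6 and 22.1 in APP_H. By this sum APP_H2 was among the highest, while it was among the lowest for most subunits. The 2 loci differed in APP_H2, where 1 was at 27.1 FPKM (10.7 to 30.1 in C) and the other at 17.6 (10.6 to 20.6 in C). The latter was higher in C1, APP_A2, APP_A3 and APP_H1. The mitochondrially encoded subunits were sought in the same list of 30 symbols, which matched only these 2 cycsb loci, so they are not described here. Of 16 loci of regulators of mitochondrial biogenesis, 10 passed the filter and none was called by limma. The unadjusted p was under 0.05 for 1, polg, the mitochondrial DNA polymerase, which was lower in APP_H vs APP_A (5.17% of all tested genes). Medians of the 10 regulators were 0.19, 0.07 and -0.05 in the 3 comparisons, and ppargc1a, the best known of these coactivators, was at 0.01 to 0.52 FPKM.

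The list for the citric acid cycle, which supplies NADH and succinate to the chain, held 27 loci. It also took in pyruvate dehydrogenase genes (pdha1a, pdha1b, pdhb, dlat and pdhx) and pyruvate carboxylase, pcxb, which are not enzymes of the cycle itself. Of the 27 loci, 23 passed the filter and none was called, with medians of 0.11, -0.19 and -0.32 in the 3 comparisons in the order above. Their summed FPKM was 575, 583 and 409 in C, 453, 567 and 583 in APP_A and 699.5, 334 and 164 in APP_H. The sum was highest in APP_H1 and lowest in APP_H3, but 10 of the 23 loci ran in the order APP_H1, APP_H2, APP_H3 from high to low, beside 13 of 17 in complex V and 26.8% of all tested genes. The tested pdha1a locus, pdhx and pcxb were among these 10. Among those in this order, fumarase, fh, was at 43.3, 12.7 and 1.95 FPKM in APP_H against 20.4 to 31.0 in C, and mitochondrial malate dehydrogenase, mdh2, at 136, 63.5 and 22.7 against 64.2 to 130. Not in this order were idh3a, a subunit of isocitrate dehydrogenase, at 5.11, 4.13 and 4.72, and ogdha, of the oxoglutarate dehydrogenase complex, at 4.38, 4.49 and 7.48 FPKM in APP_H. An unadjusted limma p under 0.05 was found for 1 locus, of IDH2, in the lower direction in each of the comparisons with APP_H. It was found for 0 otherwise. Of all tested genes, 4.4% had such a p on the lower side against C and 5.17% against APP_A. The log2 fold changes of this IDH2 locus were -1.59 against C and -1.89 against APP_A. The other IDH2 locus went the opposite way, at 0.43 against C and 0.25 against APP_A.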

How the data were processed

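Liver RNA libraries of 3 diets were sequenced in pairs of reads by the authors. Per the methods of the paper, reads were cleaned by the authors, mapped with TopHat 2 to the Ensembl genome of O. niloticus, and turned into FPKM per locus with Cufflinks, which are the deposited values. The submitters' processing notes list Bowtie 0.12.2, HISAT2 2.0, StringTie 1.3.0 and a mouse build, mm8, whereas the locus names are those Cufflinks writes and the scaffolds are those of tilapia. The build and annotation release are not given in the sources used here. The paper gives mapped reads per library, but the number of reads behind each FPKM value is unknown, so no counting error is given, and FPKM depend on the composition of the whole library. No sequence is shown, and the scaffold positions were not used beyond checking copies.

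FPKM were transformed to log2(FPKM + 1), which understates fold changes of low loci, and the 20575 loci that reached 1 FPKM or more in 3 or more libraries were tested. A linear model with 1 mean per diet and an intensity trend was fitted to all 9 libraries (limma 3.58.1, R 4.3.3), with Benjamini-Hochberg adjustment over all tested genes within each comparison. P-values measure the spread between tank pools, pooled over the 3 diets. The wider spread of the APP_H libraries therefore also enters the SE and p of APP_A vs C. The narrower spread of C and APP_A likewise enters both comparisons with APP_H, where it can make the SE and p too small. Libraries were grouped by the diet in their labels, which write APE for APP. The script was tested on simulated data. Tables and figures were made with Python 3.11.15 and matplotlib 3.10.9. Named genes were the cofactor-bearing and rotor subunits, the highest and lowest locus of each complex, the 3 loci of lowest p in each direction and comparison, and paired copies or isoforms, of which 1 locus is not reported here. Genes beyond this rule, such as cox17, fh, mdh2, idh3a, ogdha, ndufab1a and the non-overlapping members, were chosen after their values were seen. The members and lists were chosen with earlier results of these data known. The paper's Cuffdiff test needs reads and was not repeated. Alternatives were 2 smaller pseudocounts, 2 other filters, 2 scalings, a fit of only the groups compared, a replicate block, no trend, listed zeros taken as missing, and leaving out each library. Ranks of the libraries without APP_H1 or APP_H3 were added after seeing the data.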

Additional observations from a re-analysis of the deposited data

How the results depend on the processing

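No oxidative phosphorylation locus was called under any of the 20 alternatives in any comparison. The complex medians in APP_A vs C changed sign under 3, 2, 4, 1 and 5 of 19 alternatives in complexes I to V. The replicate block, the fit of only the groups compared, no trend, and leaving out an APP_H library cannot move these medians. Counts of calls over all tested genes moved more. With a pseudocount of 0.01 there were 42 for APP_A vs C, 38 for APP_H vs C and 53 for APP_H vs APP_A, against 20, 25 and 28. For APP_A vs C a fit of only the groups compared gave 35 calls, for APP_H vs APP_A it gave 57, and taking listed zeros as missing gave 12 and 17. Leaving out each library gave 12 (without APP_A2) to 26 in APP_A vs C, 18 to 55 (without APP_H3) in APP_H vs C, with 43 without APP_H1, and 5 (without APP_A2) to 59 (without APP_H3) in APP_H vs APP_A, with 54 without APP_H1. The cause was not tested. Deviations of same-numbered libraries correlated at -0.0695 to 0.126. Differently numbered libraries were not set beside them, so these values cannot decide whether tank numbers pair the libraries. The replicate block gave 7, 8 and 3 calls, and it cannot move any complex median because every diet holds the same tank numbers.

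Quantile normalization moved the median of all tested genes in APP_A vs C from -0.05 to 0.06, and the complex medians there to 0.12, 0.17, 0.17, 0.32 and 0.23 in complexes I to V. With an FPKM filter of 5, only sdhaf2, atp5s and ndufaf5 remained of the factors. Their median in APP_A vs C was 0.39, which is the value of sdhaf2. Leaving out each library, the median of complex II ranged from -0.16 to 0.23 for APP_H vs C and from -0.27 to 0.25 for APP_H vs APP_A, the upper value in each case without APP_H3. The number of reads per locus is unknown, which limits what can be said of loci at a few FPKM, and a p that misses the threshold does not show that levels were alike.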
